A study of Mus musculus with 10 samples.

Results

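The Rab genes encode small GTPases of membrane traffic, and 55 of them were measured here, among 18539 genes named on the arrays. Members were taken by symbol (Rab, a number and an optional letter) from the probes' transcript accessions, which gave 95 probes. The name table held 59 such symbols, and Rab4a, Rab7, Rab36 and Rab44, which matched no probe, were not analysed here. RNA came from the left hemibrains of 10 male C57BL/6J mice, each an animal of its own on 1 two-colour array, named below by animal (C10-413 to C10-437). The mice were bought at 3 weeks of age, housed singly and kept on SD (standard lab diet) or FD (a diet enriched in n-3 PUFA from fish oil) for about 20 weeks, to 5 months of age.

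The hemibrain RNA carried Cy-5 and another RNA carried Cy-3, and every value below is log2 Cy-5/Cy-3 unless another quantity is named. The labels put FD in the Cy-5 channel of all 10 arrays, the sample descriptions call arrays controls, and the methods count 4 FD-fed and 3 SD-fed mice, so the diet of an array was not settled and no diet comparison was made. The labels name pooled hemibrain of SD-fed mice as the Cy-3 RNA, whereas the labeling protocol and the methods name a commercial reference RNA. The identity of the Cy-3 RNA was not settled from these, so no ratio below is read as FD over SD. Ratios of marker genes describe how the Cy-5 and Cy-3 RNAs differed. The median ratio of 8 neuron markers was 5.75, of 6 astrocyte markers 5.61 and of 6 oligodendrocyte markers 4.94, while 4 proliferation markers had a median of -6.23 and 4 epithelium markers one of -4.35, although Cdh1 among the latter was at 1.81. The medians of the liver and muscle lists were 0.34 and -0.34. The liver value was that of Alb, whose signal was well above background on 0 arrays in either dye, so it is not an exact ratio. Ttr, also on the choroid plexus list, was at 6.7 in the liver list. In the muscle list Myh4 was at 2.69 and Acta1 at -0.99. On each of the 10 arrays the median of each of the 3 brain lists was above 0 and those of the proliferation and epithelium lists were below it. In bulk tissue, fewer cells of a type and less RNA per cell cannot be told apart. The share of spots well above background in Cy-5 was 68.21% to 76.92% on 9 arrays and 49.83% on C10-434, the dimmest array, and no spot was saturated.

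Rab proteins switch between a GTP-bound form on membranes, where they recruit effectors that move, tether and fuse vesicles, and a GDP-bound form that is drawn off the membrane. Exchange factors (GEFs) load GTP, GTPase-activating proteins (GAPs) end the signal, and each compartment of the cell carries its own set of Rab proteins. In neurons they are known above all for the synaptic vesicle cycle, for endosome traffic in axons and dendrites and for transport through the Golgi.

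A gene was counted as higher in the hemibrain when its ratio was above 1, which is 2-fold, on all 10 arrays and its Cy-5 signal was well above background on all of them. It was counted as lower when the ratio was below -1 on all 10 with Cy-3 well above background. Higher ratios were met by 13 of 55 Rab genes (23.6%), against 15.1% of all 18539 genes. Lower ratios were met by 6 of 55 (10.9%), against 13.0% of all genes. The median over the Rab genes of each gene's median ratio was 0.62, against 0.12 over all genes. With normexp background correction in place of the processed signals, 3 Rab genes were higher (3.24% of all genes), 1 was lower (2.41%) and the median was 0.34. Genes that left the higher count there included Rab33a and Rab9b, whose normexp medians were still 4.23 and 4.05. With the processed signals 35 of 55 Rab genes (63.6%) had a median above 0, against 55.9%. Both dyes were well above background on all arrays for 44 of 55 Rab genes (80.0%), against 61.3% of all genes. Genes not well above background in either dye on any array numbered 0 of 55 Rab genes and 1219 of 18539 genes. These shares describe the list, and no test was run on them.

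**Figure D1:**
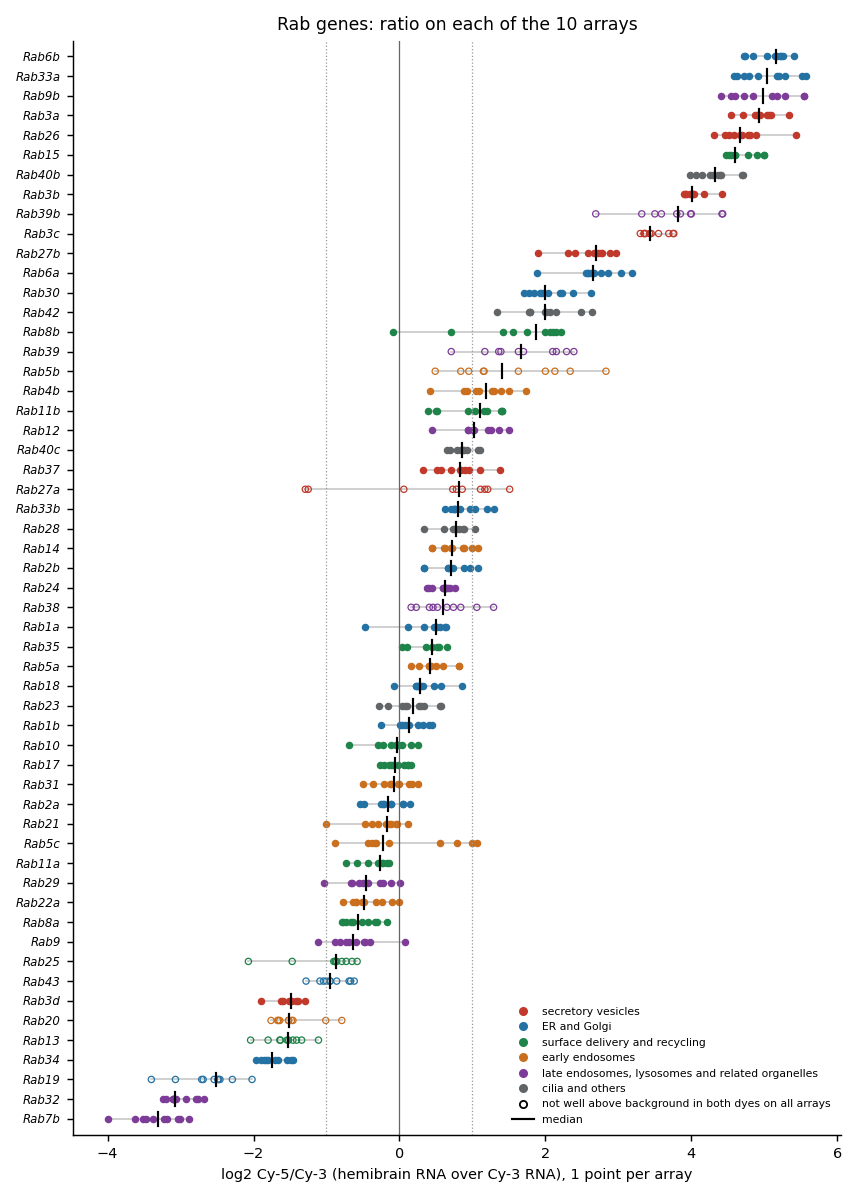
Ratio of each of the 55 Rab genes on each of the 10 arrays (x axis, log2 Cy-5/Cy-3), ordered by median and coloured by compartment. Each point is an array, the black bar the median, open points mark genes not well above background in both dyes on all arrays, and the dotted lines stand at -1 and 1. Medians ran from -3.31 for Rab7b to 5.16 for Rab6b, and the secretory vesicle genes held many of the upper rows.

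Among the Rabs of secretory and synaptic vesicles, 5 of 8 were higher on all arrays and 1 was lower, with a median over the genes of 3.07. Rab3a, the abundant Rab of synaptic vesicles, had a median of 4.93 and ran from 4.55 on C10-423 to 5.34 on C10-434, a 30.5-fold excess in the hemibrain RNA. Its background-subtracted Cy-5 signal ran from 17200 to 96100, and the Cy-3 signal of the same probe from 2180 to 2790. No Cy-3 value came near the Cy-5 values. Rab3b, a relative on synaptic and neuroendocrine vesicles, had a median of 4.01 (3.90 to 4.42). Rab3c, a further vesicle form, had a median of 3.44 (3.30 to 3.76), with Cy-3 well above background on 9 of 10 arrays. All 3 stood apart from Rab3d, the family member known from secretory granules of exocrine and mast cells, which had a median of -1.48 and ran from -1.90 to -1.30.

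Beside the Rab3 subfamily, Rab26, a Rab of secretory granules, had a median of 4.67 (4.31 to 5.44), with its top value on C10-434. Its relative Rab37, known from granule exocytosis, lay at 0.83 (0.32 to 1.38). Rab27b, which acts in granule docking, had a median of 2.70 (1.90 to 2.97). Rab27a, which carries melanosomes and lytic granules, had a median of 0.82 and was spread widely. It was at -1.29 on C10-437 and -1.25 on C10-413, at 0.06 on C10-434, and between 0.73 and 1.51 on the other arrays. Its Cy-5 signal was well above background on 8 of 10 arrays, with a lowest background-subtracted value of 8.42.

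The 250 bases before the annotated start of Rab3a, Rab3b and Rab3d are shown because these paralogs had ratios of opposite sign, and those of Rab39b because its promoter was rich in TATA matches. Capitals mark matches on either strand to the GC box letters GGGCGG or to the TATA letters TATAAA. They are RefSeq sequences of GRCm38.p6, 5′ to 3′ on the strand of the gene, from chr8:70754453-70754702 (+), chr4:108878820-108879069 (+), chr9:21918184-21918433 (-) and chrX:75578232-75578481 (-), in that order.
Rab3a: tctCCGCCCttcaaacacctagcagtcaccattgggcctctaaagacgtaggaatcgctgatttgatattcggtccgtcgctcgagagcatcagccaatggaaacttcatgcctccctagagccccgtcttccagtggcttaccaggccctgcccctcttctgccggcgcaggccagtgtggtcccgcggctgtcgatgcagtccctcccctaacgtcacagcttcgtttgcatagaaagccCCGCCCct
Rab3b: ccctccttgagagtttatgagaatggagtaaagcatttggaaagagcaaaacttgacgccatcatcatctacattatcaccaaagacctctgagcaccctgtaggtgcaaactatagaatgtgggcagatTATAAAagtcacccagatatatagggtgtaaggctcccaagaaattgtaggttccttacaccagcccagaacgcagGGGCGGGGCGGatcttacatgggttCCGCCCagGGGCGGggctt
Rab3d: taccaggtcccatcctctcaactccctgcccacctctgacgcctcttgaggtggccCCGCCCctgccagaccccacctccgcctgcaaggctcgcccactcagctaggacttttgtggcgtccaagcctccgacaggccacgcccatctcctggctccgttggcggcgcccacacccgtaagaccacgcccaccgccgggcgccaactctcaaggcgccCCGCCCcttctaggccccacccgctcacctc
Rab39b: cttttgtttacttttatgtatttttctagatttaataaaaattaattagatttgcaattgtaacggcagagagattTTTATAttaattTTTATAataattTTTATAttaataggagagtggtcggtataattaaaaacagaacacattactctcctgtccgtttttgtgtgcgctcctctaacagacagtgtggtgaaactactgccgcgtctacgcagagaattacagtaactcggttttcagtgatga

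Rab3a and Rab3d each held 2 GC box matches, Rab3b held 4 together with 1 TATA match, and Rab39b held 3 TATA matches and no GC box. A promoter of that length was given for 47 of the 55 Rab genes, the others being Rab2a, Rab7b, Rab18, Rab26, Rab27b, Rab30, Rab37 and Rab38. The GC box letters were in 33 of the 47 (70.2%), against 42.7% of 17492 protein-coding promoters, and the median GC content was 60.8% against 55.2%. TATA letters were in 3 of the 47 (6.38%), those of Rab3b, Rab39b and Rab42, against 12.4% of all promoters. All 3 were among the 10 genes with a promoter that were higher on all arrays, and 0 of the other 37 held the letters. No such split was computed for all promoters, and a link between TATA letters and ratio was not tested. In the sequences above, the matches of Rab3b and Rab39b did not lie just before the start. Those of Rab39b read on the opposite strand. The cAMP response element letters TGACGTCA were in 2 and the E-box letters CACGTG in 4 of the 47 (4.26% and 8.51%), against 1.98% and 6.65%. The letters TTCAGCACC, the left part of the RE1 element, were in 0 of the 47 and in 0.314% of all promoters. A match is a description of letters and marks no binding site.

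Among the Rabs of the ER and Golgi, 4 of 13 were higher on all arrays and 2 were lower, with a median over the genes of 0.50. Rab6b, the neuron-enriched relative of the Golgi Rab6a, had the highest median of the 55 genes, 5.16 (4.72 to 5.41), which is 35.9-fold. Its background-subtracted Cy-5 signal ran from 20300 to 104000 and its Cy-3 signal from 2700 to 3620. Rab6a itself, which directs retrograde transport through the Golgi, had a median of 2.65 and ran from 1.89 on C10-415 to 3.18 on C10-423. Rab33a had a median of 5.04 (4.59 to 5.57), while its paralog Rab33b, which binds the autophagy protein Atg16l1, lay at 0.80 (0.63 to 1.30). Rab30, a Golgi Rab, had a median of 2.0 (1.71 to 2.62).

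The brightest probes of the ER exit and early Golgi Rabs that every cell uses had medians between -1 and 1. Rab1a had a median of 0.50 over the 8 arrays with a value, Rab1b 0.13, Rab2a -0.16, Rab2b 0.70 and Rab18, a Rab of the ER and lipid droplets, 0.28. A second Rab2a probe, well above background in both dyes on all arrays, was at 1.28. The low end of this class was Rab34, known from macropinosomes and cilium assembly, with a median of -1.75 (-1.97 to -1.46), and Rab19, with a median of -2.52 (-3.40 to -2.02). A second Rab34 probe, well above background in both dyes on all arrays, was at -0.89 (-1.38 to -0.70) and did not meet the rule. With its probes averaged Rab34 was at -1.35 and was still counted as lower. Rab43 was at -0.95 (-1.28 to -0.62).

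Of the 10 Rabs of surface delivery and recycling, 0 were higher and 1 was lower on all arrays, with a median over the genes of -0.05. One more had a large ratio but an incomplete row: Rab15, a Rab of early and recycling endosomes, lay between 4.47 and 5.00 on 9 arrays, with a median of 4.60, and its spot was set aside as an outlier on C10-434. Counted over the arrays with a value, 14 Rab genes were higher, against 16.8% of all genes. Rab13, a Rab of tight junctions, was lower on all arrays, with a median of -1.53 (-2.04 to -1.11), and Rab25, the epithelial member of the Rab11 subfamily, had a median of -0.87 (-2.07 to -0.58). The Cy-5 signal of Rab25 was well above background on 7 arrays, and its median was -0.40 with background subtraction and a floor and -0.33 with normexp. The brightest probes of Rab10 (-0.04), Rab17 (-0.06), Rab11a (-0.27), Rab35 (0.45) and Rab8a (-0.57) had medians between -1 and 1. Other probes of Rab10 were at -0.98 and -0.95, and one of Rab11a was at 0.69.

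Among the 9 Rabs of early endosomes, 0 were higher and 0 were lower on all arrays, with a median over the genes of -0.07. Rab5a, which drives early endosome fusion, had a median of 0.42 (0.16 to 0.81), and Rab14 one of 0.72 (0.44 to 1.07). The brightest probes of Rab21 (-0.17), Rab31 (-0.07) and Rab22a (-0.49) lay close to 0 or just under it, while a second probe was at 0.98 for Rab21 and at -1.73 for Rab22a. Rab20, known from phagosomes, came nearest to being counted as lower, with a median of -1.52, but it was at -0.79 on C10-415.

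Of the 10 Rabs of late endosomes, lysosomes and related organelles, 2 were higher and 2 were lower, with a median over the genes of 0.60. Rab9b had a median of 4.98 (4.41 to 5.54), and its paralog Rab9, which returns receptors from late endosomes to the Golgi, one of -0.64 (-1.12 to 0.07). Rab39b, an X-linked gene tied to intellectual disability in people, had a median of 3.82 and ran from 2.69 on C10-415 to 4.43 on C10-437. The related Rab39 was at 1.67 (0.71 to 2.39), with Cy-3 well above background on 5 arrays.

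The 2 genes with the lowest medians belonged here. Rab7b, which acts between late endosomes and the Golgi, had a median of -3.31 and ran from -3.99 on C10-437 to -2.88 on C10-435. Its background-subtracted Cy-5 signal of 102 to 681 lay under every Cy-3 value of the same probe, 3550 to 5290. Rab32, known from melanosome formation, had a median of -3.08 (-3.24 to -2.68), while its relative Rab38 cleared the background threshold in Cy-5 on 3 of the 10 arrays, and in Cy-3 on 4. Rab12, Rab24 and Rab29 had medians of 1.02, 0.62 and -0.46.

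Outside these compartments, Rab40b, whose family carries a SOCS box and serves ubiquitin ligases, had a median of 4.33 (3.98 to 4.71), and Rab40c one of 0.86 (0.65 to 1.11). Rab42 was higher on all arrays, with a median of 2.0 (1.33 to 2.64). Rab23, a Rab of Hedgehog signalling, and Rab28, a Rab of cilia and photoreceptors, had medians of 0.18 and 0.77. Other probes of Rab23 were at 0.89 and -0.62, so its direction depends on the probe.

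Paralogs of a subfamily were compared next, since a difference between 2 ratios can be read on each array. Of 22 pairs in which each gene was well above background in at least 1 dye on all arrays, 10 differed by more than 1 on every array and 4 stayed within 1 on every array. The first count was 7 with the probes of a gene averaged and 4 with normexp, and no share was computed for other pairs of genes, so it is a description of these subfamilies. Rab3a exceeded Rab3d by a median difference of 6.45 (6.24 to 6.85), Rab3b exceeded it by 5.54 (5.37 to 5.88) and Rab3c by 5.01 (4.72 to 5.59). Rab9b exceeded Rab9 by 5.40 (4.88 to 6.41), and Rab33a exceeded Rab33b by 4.09 (3.83 to 4.54). The same held for Rab26 over Rab37 (3.88), Rab40b over Rab40c (3.44) and Rab6b over Rab6a (2.47). A second Rab6b probe, well above background in both dyes on all arrays, had a median of 3.12. It lay above Rab6a on every array except C10-423, where it was at 2.85 against 3.18. This second probe thus did not exceed Rab6a by more than 1 on every array, and the size of the difference depends on the probe. With the probes of each gene averaged, the medians were 4.05 for Rab6b and 2.55 for Rab6a. Rab11b over Rab25 (2.0) and Rab27b over Rab27a (1.73) also met the rule, but the Cy-5 signal was well above background on 7 arrays for Rab25 and on 8 for Rab27a, so these sizes are not exact there. The 3 high Rab3 genes differed less among themselves, with Rab3a over Rab3b at 0.86 (0.52 to 1.33) and Rab3b over Rab3c at 0.58 (0.25 to 0.74). Paralogs can share sequence, and cross-hybridization between them was not tested.

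**Figure D2:**
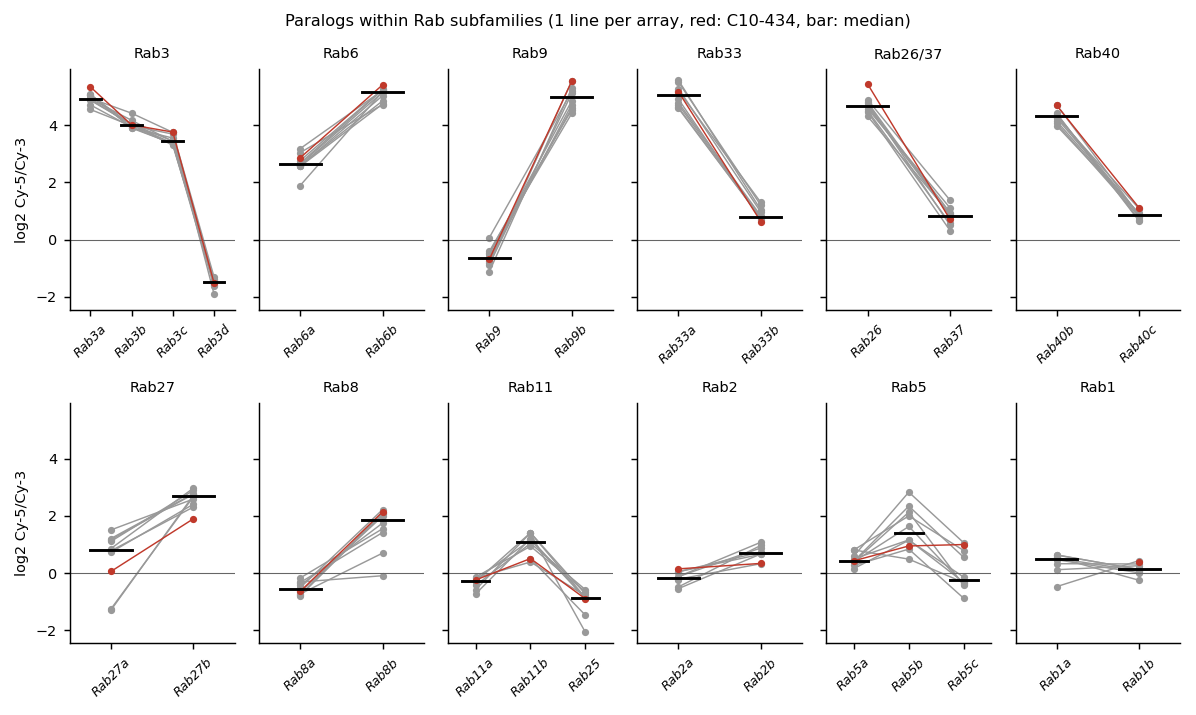
Ratios (y axis, log2 Cy-5/Cy-3) of the members of 12 Rab subfamilies, with 1 line per array, array C10-434 in red and the median as a black bar. The lines fall together from Rab3a, Rab3b and Rab3c (medians 4.93, 4.01 and 3.44) to Rab3d (-1.48), and cross in the Rab1 panel.

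Several genes had more than 1 probe, and probes of 1 gene did not always give the same ratio. Of 32 genes with several probes, 15 had probe medians within 0.5 of each other and 12 had medians more than 1 apart. Rab8b, a Rab of exocytic transport, had a brightest probe at 1.87 and others at -1.60 and -1.80. Averaged over its probes its median was -0.59, so the direction for Rab8b depends on the probe. The same was true of Rab37, with probes at 0.83 and -1.48 and an average of -0.31. Rab11b had probes at 1.1, -0.04, -0.07 and -0.62, with an average of -0.01, so the difference from Rab25 rests on the brightest probe. Rab43 probes ran from -2.08 to 0.53 and Rab5b probes from -0.58 to 1.40. Among the high genes the size moved and the sign did not: Rab6b probes were at 5.16 and 3.12, and Rab3b probes at 4.01 and 5.57, the latter with Cy-3 well above background on 2 arrays and so not an exact ratio. The second Rab3d probe was at -0.40, and with its probes averaged Rab3d (-0.99) was no longer counted as lower.

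**Figure D3:**
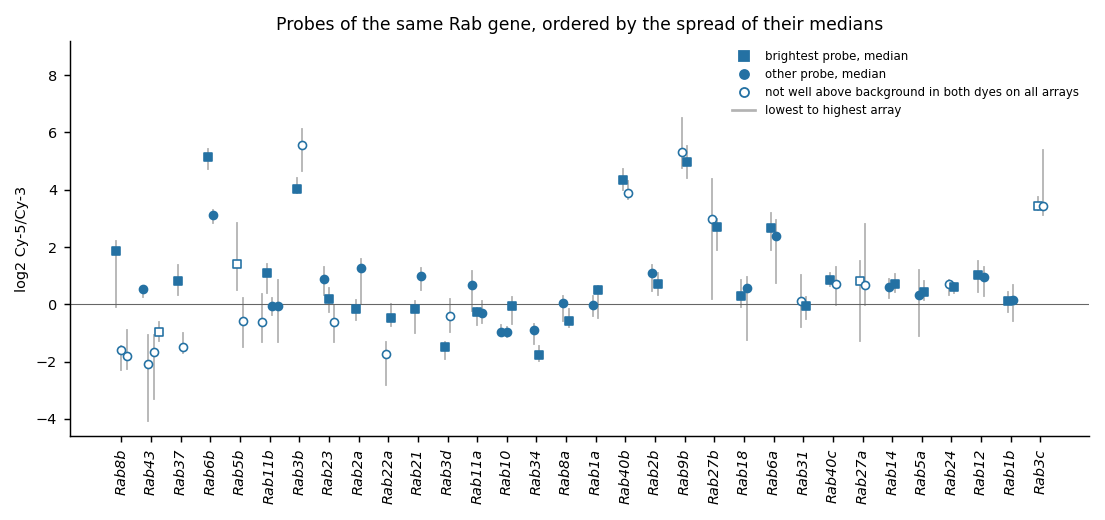
Probe medians (y axis, log2 Cy-5/Cy-3) of the 32 Rab genes with several probes, ordered by the spread between probes. Squares are the brightest probe, circles the others, open symbols probes not well above background in both dyes on all arrays, and grey lines the lowest to highest array. Rab8b, with probes from -1.80 to 1.87, has the widest spread, and Rab3c the narrowest together with Rab1b.

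The spread between the animals was like that of other genes. The median range over the arrays, among genes well above background in both dyes, was 0.78 for the Rab genes and 0.78 for all genes, and 0.71 and 0.72 without C10-434. Rab8b, Rab5c and Rab4b had the widest ranges in that set. Rab8b was at -0.09 on C10-415 and 0.70 on C10-435, and between 1.42 and 2.22 on the other arrays. Rab5c, a paralog of Rab5a on early endosomes, fell into 2 bands. It lay between 0.55 and 1.06 on C10-413, C10-424, C10-434 and C10-437, and between -0.88 and -0.14 on the other 6 arrays. Rab4b, a Rab of fast recycling, ran from 0.42 on C10-423 to 1.74 on C10-413. Rab5b and Rab11b also had their lowest value on C10-423 (0.49 and 0.39) and their highest on C10-413 (2.83 and 1.41).

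Among the 38 Rab genes with values on all arrays and both dyes above background, C10-423 held the lowest value of 8 and the highest of 8, and C10-415 the lowest of 8 and the highest of 7. These are 21.1% and 21.1%, and 21.1% and 18.4%, against 21.0% and 16.2%, and 13.1% and 17.9%, of all genes on the same arrays. C10-434 held the highest value of 7 (18.4%, against 22.0%).

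The file headers place 4 arrays on each of 2 slides: C10-415, C10-416, C10-417 and C10-423 on one, and C10-424, C10-425, C10-434 and C10-435 on the other. Between them, 0 of 90 Rab probes passed limma with Benjamini-Hochberg adjustment over all 40299 probes, of which 0.0744% passed. At an unadjusted p under 0.05, 2 of the 90 passed (2.22%, against 9.92% of all probes). The smallest limma p was that of Rab12, at 0.84 on the first slide and 1.28 on the second, a difference of 0.45 ± 0.18 (SE; adjusted p = 0.451). Rab19, at -2.74 and -2.32, differed by 0.42 ± 0.18 (SE; limma adjusted p = 0.484) and Rab25, at -0.72 and -1.33, by -0.61 ± 0.27 (SE; limma adjusted p = 0.507). In no alternative did a Rab probe pass. Slide, labeling, animal and diet cannot be told apart here, since the diet of an array was not settled.

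Rab proteins work through regulators and effectors, and 93 such genes were described beside them. Of these, 19 (20.4%) were higher on all arrays and 5 (5.38%) were lower, by the same rules, against 15.1% and 13.0% of all genes, with a median over the genes of 0.51. With no loess 13 of the 93 partners were higher and 8 were lower, against 13.8% and 15.1% of all genes. With subtraction and a floor 13 were higher and 1 was lower, against 12.6% and 9.75%. In the authors' values 14 were higher and 9 were lower, against 15.3% and 15.4%. In these settings the higher partners came near the share of all genes. By class, 10 of 41 effectors were higher and 4 were lower, 6 of 26 exchange factors were higher and 1 was lower, and 3 of 18 GAPs were higher and 0 were lower. Of the 8 genes of membrane extraction and prenylation, 0 were higher and 0 were lower.

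Among genes well above background in both dyes on all arrays, Tbc1d30, a GAP, had a median of 4.24 (3.91 to 4.74) and Madd, the exchange factor of Rab3, one of 3.98 (3.62 to 4.38). Rph3a, the rabphilin that binds Rab3a on synaptic vesicles, had a median of 3.51 over 9 arrays (2.88 to 4.31), and Osbpl1a, a Rab7 effector, one of 3.23 (3.01 to 3.70). The lowest were Micall2, a Rab13 effector at cell junctions (-2.91, from -3.40 to -2.47), Eea1, the Rab5 tether of early endosomes (-1.59, from -2.01 to -1.12), Tbc1d10c (-1.54, from -1.97 to -0.93) and Dennd1c (-1.46, from -2.30 to -0.91). Gdi2, which draws GDP-bound Rab proteins off membranes, had a median of -0.55 over 7 arrays (-1.17 to -0.13).

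**Figure D4:**
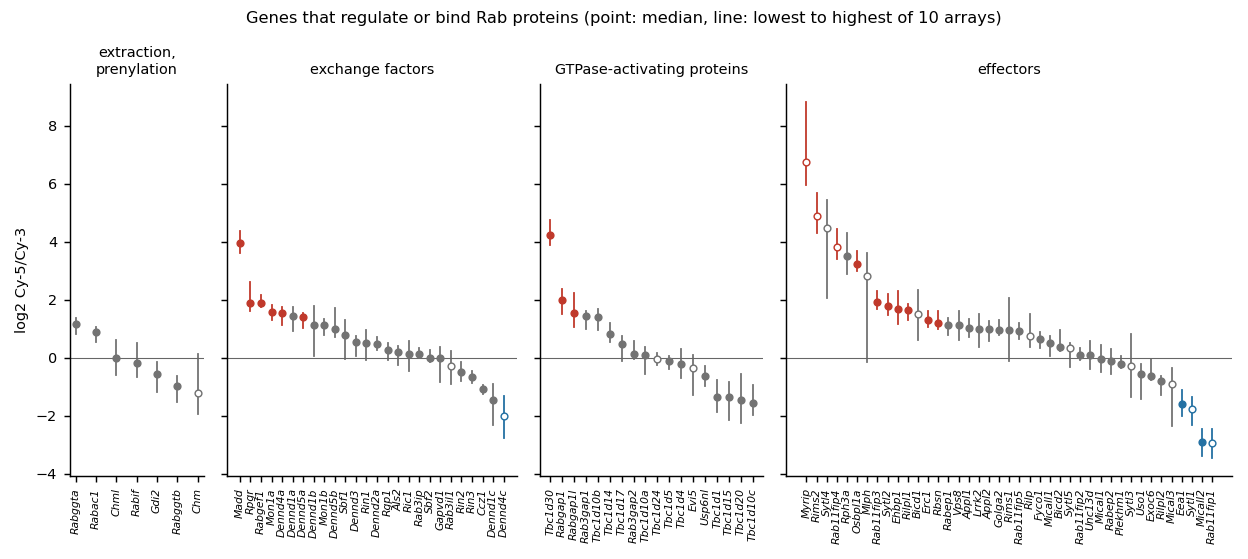
Median ratio (y axis, log2 Cy-5/Cy-3, with the lowest to highest array as a line) of genes that regulate or bind Rab proteins, by class. Red genes are higher and blue genes lower on all arrays by the 2-fold rules, and open points are not well above background in both dyes on all arrays. Effectors span the widest interval, from -2.95 for Rab11fip1 to 6.75 for Myrip, whose Cy-3 signal was well above background on 2 arrays.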

How the data were processed

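Hemibrain RNA of 10 mice was hybridised on Agilent two-colour arrays, 1 array per mouse. The authors scanned the slides and deposited Feature Extraction (10.10.1.1) output, with signals of each dye as intensities on a linear scale. The authors' files also carry a log10 ratio per spot, red (Cy-5) over green. The deposited table of 1 value per probe and array holds log2 ratios, whose correlation across probes with the ratios used here was 0.9876 to 0.9994.

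From the deposited processed signals, log2 Cy-5/Cy-3 was computed with a per-array loess of span 0.3, with control spots at weight 0, outlier spots set aside and spots of a probe averaged (R 4.3.3, limma 3.58.1; Python 3.11.15, numpy 2.4.6, pandas 2.3.3). A probe counted as well above background where 0.5 or more of its spots carried the software's flag. Names came through a RefSeq table of GRCm38.p6, which matched 27198 of 41174 probes (66.1%), and a gene was represented by its brightest probe. Promoters were matched by symbol. The number of arrays limits the precision of every range.

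The diet of an array was not settled, so arrays were given as values, ranges and medians. The Rab list, compartments, subfamilies, partner list and call rules were chosen with earlier results of these data known. Genes named with full values were the Rab3 and Rab27 subfamilies, the 8 highest and 6 lowest medians well above background in both dyes, pairs differing by more than 1 on every array, the 3 widest ranges, the 3 smallest p between slides, and the 4 highest and 4 lowest partners with Gdi2. A further gene of that rule is not reported here. Other genes are named as members of a class, after their values were seen. The slide comparison used limma with Benjamini-Hochberg adjustment and was tested on simulated data. Alternatives varied the background correction, normalization, probe rule, threshold, filter and arrays. Counting over the arrays with a value was chosen after seeing the data.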

Additional observations from a re-analysis of the deposited data

Results flagged for a closer look

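For 3 of 32 measures, 1 array lay far from the other 9 by Dixon's criterion, which chance meets in about 1 of 20, or 1.6 of 32. Rab3b was at 4.42 on C10-415, with the other arrays between 3.90 and 4.17. Rab6a was at 1.89 on C10-415, with the other arrays between 2.56 and 3.18. Rab26 was at 5.44 on C10-434, the dimmest array, with the other arrays between 4.31 and 4.89. The cause was not tested.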

How the results depend on the processing

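The median over the Rab genes stayed above 0 under every alternative run, and normexp background correction moved it and the counts most. With normexp, 3 Rab genes were higher (3.24% of all genes), 1 was lower (2.41%) and 4 pairs of paralogs differed. The median over the Rab genes was 0.34, while that of all genes went from 0.12 to 0.01. The cause of these shifts was not tested. Normexp, like subtraction and a floor, was run with an offset of 50 added to the signals. A call needs every array, and several genes that lost theirs with normexp kept medians beyond the threshold. Among them were Rab33a (4.23), Rab9b (4.05), Rab26 (3.95), Rab3c (1.79), Rab7b (-2.71), Rab32 (-2.31) and Rab3d (-1.21). The median over the Rab genes was 0.44 with all probes of a gene averaged, 0.46 with subtraction and a floor, and 0.51 with no loess, with median centring and with the deposited table. Among the 93 partners, 1 was lower with subtraction and a floor, 8 with no loess and 9 with the deposited table, against 9.75%, 15.1% and 15.4% of all genes. Elsewhere 12 to 15 Rab genes were higher, 4 to 8 were lower and 7 to 11 pairs differed. With only genes well above background in both dyes, 11 Rab genes were higher. Rab20 joined the lower genes with no loess, median centring and the deposited table, Rab13 and Rab19 left them with subtraction and a floor, and Rab42 left the higher genes there. Of 208 medians of named genes under 8 settings, 161 were rated the same, 47 were rated moved and 0 of the called values turned sign. Some rated moved stayed within the lowest-to-highest range over the arrays, such as Rab8b with normexp (1.09, range -0.09 to 2.22). Rab3c was at 1.97 with subtraction and a floor (against 3.44), and averaging the probes turned the sign of Rab8b (-0.59), Rab11b (-0.01) and Rab37 (-0.31), which were not counted as higher or lower. Without C10-434, 14 Rab genes were higher (17.1% of all genes), Rab15 among them, and 11 pairs differed. No Rab probe differed between the slides with any array left out (0 to 0). At an unadjusted limma p under 0.05, 1 to 6 passed (1.11% to 6.67%, against 7.77% to 12.2% of all probes). No paired analysis was possible because no groups with shared numbers could be set up from the labels.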
